A study of Mus musculus with 10 samples.

Results

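The question was whether RNA recovered with an antibody against IMP2 stood in a different relation to total RNA in muscle labelled wild type (WT) than in muscle labelled IMP2 null. For each gene this is the interaction: the log2 difference between IP and total RNA in WT-labelled samples, minus the same difference in null-labelled samples. A positive value means that IP over total RNA was higher in the WT-labelled samples. The same number is also the WT minus null difference in the IP, called the IP side here, minus the WT minus null difference in total RNA, the total side. All 43629 gene rows were read, and the 14399 genes that passed a filter on low counts were tested over all 10 samples.

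Every sample was skeletal muscle of male C57BL/6 mice, 6 weeks old, after 2 weeks on a high-fat diet, and these conditions were shared by all groups. There were 3 total RNA samples labelled WT, 3 total RNA samples labelled IMP2 null, 2 IP samples labelled WT and 2 IP samples labelled IMP2 null. The IP used home-made antibodies against IMP2, and no IP with a control antibody was analysed here. The series design text names a muscle-specific knockout, while the sample labels say IMP2 null; the driver of the deletion and the deleted exons are not given. Nothing in the labels ties a sample to its own animal, so each p-value measures the spread between these samples, which may be technical.

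IMP2, encoded by Igf2bp2, belongs to a family of RNA-binding proteins that bind mRNAs through RRM and KH domains and affect where those mRNAs lie, how long they last and how well they are translated. Igf2 mRNA is the target that gave the family its name. In an RNA immunoprecipitation, transcripts come down with the protein, but also through the beads, the antibody and abundant complexes, and a genotype without the protein is the usual measure of that second part. The interaction adds total RNA to this comparison, so that a transcript that is merely more abundant in one genotype is not counted as more recovered.

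Total RNA samples held 9691580 to 14809788 gene counts and IP samples 917462 to 4037480, so 3 counts correspond to at most 0.31 CPM (counts scaled to a common library total) in total RNA and to 3.27 CPM in the shallowest IP, null-labelled IP 1. CPM values below use TMM scaling. 4 total RNA samples stood apart. Null-labelled total 1 held 2451 CPM over 9 pancreatic islet markers against 1.00 to 2.46 CPM in the other 5 total samples, in which 5 or 6 of the 9 markers were at 0. WT-labelled total 2 held 557.9 CPM over 5 brown adipocyte markers against 19.6 to 43.1 in the others. WT-labelled total 3 had the lowest sum of 10 myofibre markers, 119300 CPM against 213000 to 279600 in the other 5. Null-labelled total 3 differed from the other null-labelled total samples in favour of short coding sequences, as described with coding length below. The markers that define myofibres were present in every sample, with none at 0.

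Igf2bp2 (ENSMUSG00000033581) was counted at a similar low level under both labels. Its counts were 35, 37 and 48 in the WT-labelled total RNA, or 2.50, 2.85 and 3.35 CPM. They were 21, 19 and 21 in the null-labelled total RNA, or 2.52, 1.88 and 2.46 CPM. The ranges overlap, and the difference of 0.35 ± 0.48 on the log2 scale (standard error, SE, here and below; adjusted p = 0.996, edgeR) did not pass. In the IP it had 28 and 4 counts under the WT label and 9 and 25 under the null label, and the interaction was -0.30 ± 0.82 (adjusted p = 0.91). Gene counts therefore did not show the loss that the label names. Whether the counted reads lie outside a deleted part cannot be read from gene counts, and the groups are called by their labels throughout.

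IP over total RNA differed strongly between genes and in much the same way under both labels. In the WT-labelled samples 2534 genes (17.6%) were higher and 2791 (19.4%) lower in the IP than in total RNA at an adjusted p under 0.05. In the null-labelled samples the counts were 2549 (17.7%) higher and 2701 (18.8%) lower, but 934 and 1212 without null-labelled IP 2. Of the genes that were higher, 1544 were called under both labels, which is 60.9% of the WT-labelled list and 60.6% of the null-labelled list. Of those that were lower, 1925 were called under both, 69.0% and 71.3% of the lists. Across the 14399 genes, IP over total RNA under one label correlated with that under the other (Pearson's r = 0.64, Spearman's rho = 0.70), and over the 7948 genes with at least 10 counts in each IP sample r was 0.80 and rho 0.79. These correlations are across genes, which are not independent replicates, and the 2 sets of samples share no library.

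Against that background, the interaction called 1 gene as higher (0.00694% of those tested) and no gene as lower (0%). The called gene was Prps1l3. At an unadjusted p under 0.05 there were 775 genes with a positive interaction (5.38%) and 929 with a negative one (6.45%). Which direction held more genes depended on the scaling. There were 941 positive and 786 negative with RLE size factors, 968 and 782 with TMMwsp, and 235 and 1942 with library size alone. The direct comparison of the IPs called the same gene as higher in the WT-labelled IP (0.00694%) and none as lower (0%), with 1844 genes at an unadjusted p under 0.05. The comparison of total RNA called none as higher (0%) and none as lower (0%), with 531 genes at an unadjusted p under 0.05. DESeq2 called 5 genes as higher and 12 as lower in the interaction, and limma-voom called none. The DESeq2 calls include 15 genes described below that did not pass in edgeR: Hbegf, Selenok, Hhatl and Kcnc4 as higher, and BC023105, Aldh9a1, Eif2s3y, Hars2, Palld, Fgfr1op, Fmo1, Las1l, Parp8, Rbm28 and Clk1 as lower, with adjusted p from 0.0133 to 0.0461.

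**Figure D1:**
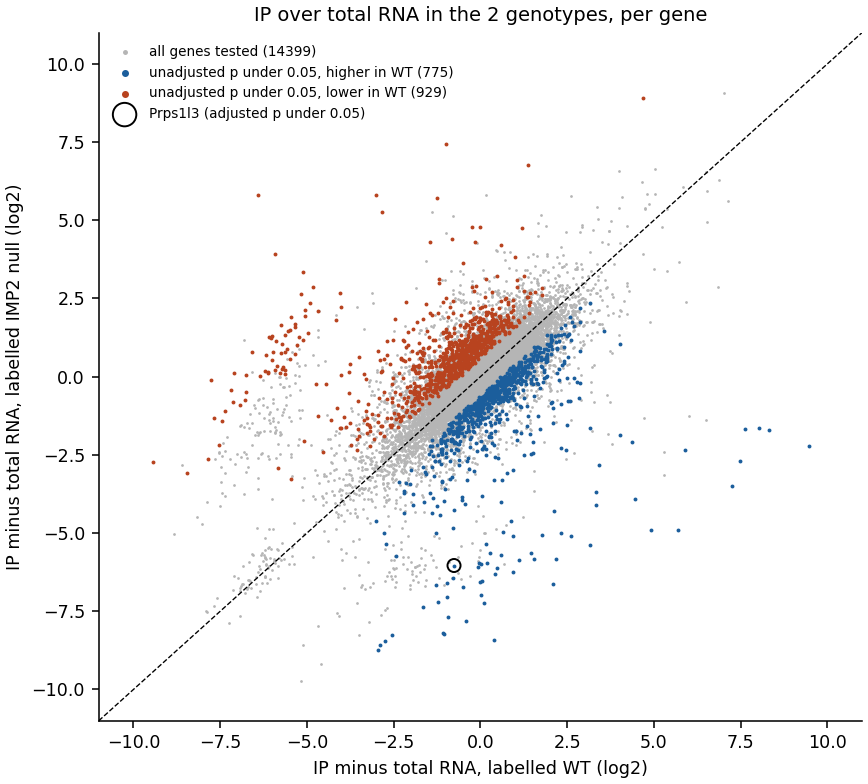
Each dot is 1 of 14399 genes, placed by its fitted log2 difference between IP and total RNA in WT-labelled (x axis) and null-labelled samples (y axis), with the dashed line at equality. Most genes lie along the line; the 775 and 929 genes with an unadjusted p under 0.05 lie below and above it, and Prps1l3, the circled gene, is at -0.76 and -6.04.

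Prps1l3 (ENSMUSG00000079104, GRCm38 chr12:57230412-57239882, plus strand) is a close relative of Prps1, one of the enzymes that make phosphoribosyl pyrophosphate, the sugar phosphate donor of nucleotide synthesis. Its total RNA counts were 160, 154 and 182 under the WT label and 112, 114 and 100 under the null label, which is 11.4 to 12.7 CPM and 11.3 to 13.5 CPM. Its IP counts were 17 and 18 under the WT label, 7.14 and 7.01 CPM, and 0 and 1 under the null label. Total RNA overlaps between the labels, while both WT-labelled IPs lie above both null-labelled IPs. The interaction was 5.28 ± 0.71 on the log2 scale (adjusted p = 0.0415, edgeR), and it came from the IP: the IP side was 5.26 ± 0.66 (adjusted p = 0.0177) and the total side -0.02 ± 0.21. Because the null-labelled side rests on a count of 1, the size is better read from the pooled counts, 35 of 4706239 in the WT-labelled IPs and 1 of 4954942 in the null-labelled IPs. Their ratio was 36.8, with an exact 95% interval from 6.19 to 1500 that covers counting error only.

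The coding sequence of Prps1l3 is 954 bases long, as is that of Prps1 on chromosome X (chrX:140456613-140476140), and the 2 are 96.9% identical with 30 mismatches and a longest identical run of 164 bases. The following stretch, coding positions 16 to 75 counted from the A of the start codon in the GENCODE M21 transcripts, is shown because it holds 4 of those mismatches, in capitals, and shows how few bases separate reads of the 2 genes.
Prps1l3: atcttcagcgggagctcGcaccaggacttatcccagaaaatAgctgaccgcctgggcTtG
Prps1: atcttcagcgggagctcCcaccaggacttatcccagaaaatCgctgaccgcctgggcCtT
Reads that match both genes equally are left out of such counts as not unique, and the gene also shares exonic positions with Mipol1 on the same strand, so its counts are uncertain. Prps1 itself had 188 counts in the WT-labelled IPs and 181 in the null-labelled IPs, a ratio of 1.09 (0.887 to 1.35). Mipol1 had 10 and 9 counts, a ratio of 1.17 (0.427 to 3.25). The ratio of Prps1l3 was thus not shared by its near copy or by the gene it overlaps. Leaving out any 1 of the 10 samples ended the call, with adjusted p from 0.0581 without WT-labelled total 2 to 0.417 without null-labelled IP 2, and the interaction stayed between 5.01 and 8.87. It also ended with library size alone as the scale (0.258), in limma-voom (0.471) and with a replicate block across groups (0.252), and it held with RLE size factors (0.032), TMMwsp (0.0332) and edgeR's robust setting (0.035).

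The genes with an unadjusted p under 0.05 were then split by where the difference lay. A gene was placed on the IP side when the IP made up at least 66.7% of its interaction, on the total side when it made up at most 33.3%, and was called mixed in between. Of the 1704 genes, 1300 (76.3%) were on the IP side, 41 (2.41%) on the total side and 363 (21.3%) were mixed. Over all 14399 genes the shares were 61.1%, 20.9% and 18.0%. The median SE was 0.38 on the IP side, with 2 samples a group, and 0.26 on the total side, with 3, so the IP side has the larger error. The 2 sides had opposite signs in 1503 of the 1704 genes (88.2%) and in 55.8% of all genes. Because the interaction is the IP side minus the total side, choosing genes by its p favours opposite signs. The larger share among the 1704 genes is therefore no separate result. Leaving out 1 sample moved the number on the total side to between 9 (of 1506, without null-labelled IP 2) and 96 (of 1772, without WT-labelled total 1), and the number on the IP side to as many as 2138 (of 2415, without WT-labelled IP 1). With class limits of 80% and 20%, 872 of the 1704 were on the IP side and 20 on the total side.

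**Figure D2:**
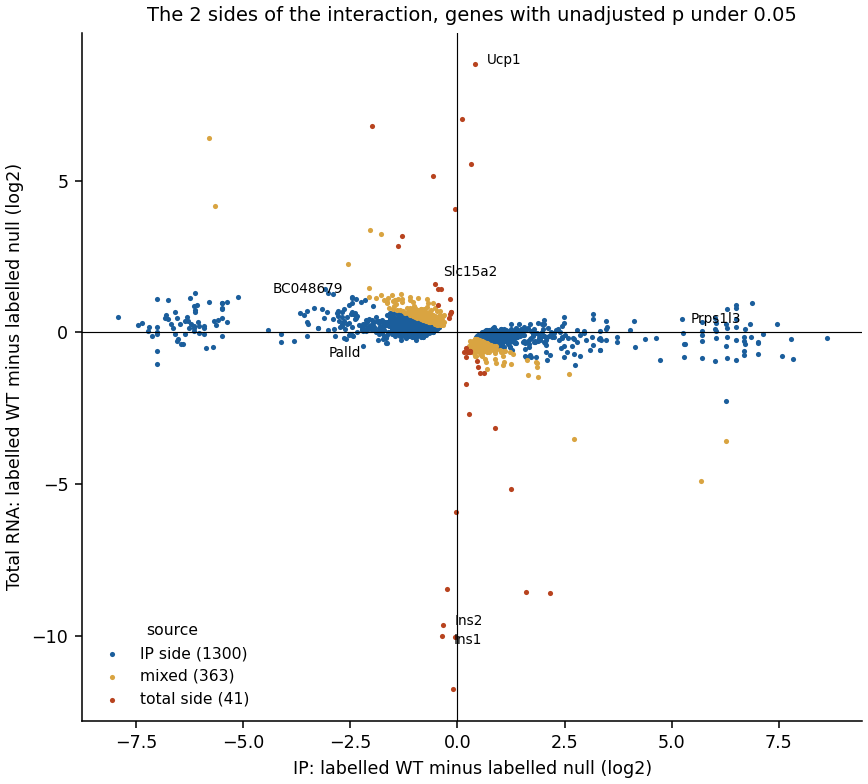
Each dot is 1 of the 1704 genes with an unadjusted p under 0.05, placed by its log2 WT minus null difference in the IP (x axis) and in total RNA (y axis), coloured by the source of the interaction. The 1300 genes on the IP side spread along the x axis, and the 41 on the total side spread along the y axis, with Ins1, Ins2 and Ucp1, each high in 1 total RNA sample, far from 0.

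Genes with a positive interaction that did not pass the correction included mRNAs for mitochondrial, secreted and membrane proteins (adjusted p = 0.342 for each gene of this paragraph and the next, edgeR). Selenok, a selenoprotein of the endoplasmic reticulum, had 72.3 and 72.4 CPM in the WT-labelled IPs against 24.95 and 32.1 in the null-labelled IPs. Its total RNA was 24.3 to 33.3 CPM and 27.7 to 48.0 CPM, which overlap, so that 84.5% of the interaction of 1.54 ± 0.37 was on the IP side. Cox7c, a subunit of cytochrome c oxidase, had 7.14 and 8.95 CPM against 3.84 and 1.24 CPM in the IPs, with total RNA of 16.0 to 18.3 and 18.1 to 20.3 CPM, and its interaction was 2.26 ± 0.51. Both genes were separate in the IP, but the null-labelled Cox7c values rest on 4 and 6 counts. Wfikkn2, which encodes a secreted binder of myostatin, had 10.5 and 10.1 CPM against 2.88 and 2.69 CPM in the IPs and an interaction of 2.08 ± 0.48. Mrpl22, a protein of the large mitochondrial ribosome subunit, had 7.14 and 16.3 CPM against 0.96 and 3.52 CPM and an interaction of 2.34 ± 0.58. Sf3b5, a small subunit of the SF3b splicing complex, had 37.4 and 50.6 CPM against 17.3 and 18.9 CPM and an interaction of 1.47 ± 0.37. Zdhhc21, a palmitoyltransferase, had 5.04 and 12.8 CPM against 0.96 and 2.07 CPM and an interaction of 2.22 ± 0.56. For these 6 genes the IP side was 84.5% to 103.3% of the interaction. In null-labelled IP 1, however, Wfikkn2 had 3 counts, and Mrpl22 and Zdhhc21 had 1 count each.

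For 5 others the total RNA difference had the opposite sign and made up part of the value. Hbegf, the heparin-binding EGF-like growth factor, had 82.8 and 163 CPM in the WT-labelled IPs against 52.8 and 52.4 CPM, and 30.0 to 37.1 CPM in WT-labelled total RNA against 46.2 to 67.1 CPM. Neither pair of ranges overlaps, and the interaction of 1.88 ± 0.38 was 65.4% from the IP. Kcnc4, a voltage-gated potassium channel, had 474 and 562 CPM against 252 and 367 CPM in the IPs and an interaction of 1.24 ± 0.31. Hhatl, a membrane protein of muscle related to hedgehog acyltransferase, had an interaction of 1.28 ± 0.31, Eef1g, the gamma subunit of elongation factor 1, one of 1.30 ± 0.33, and Them6, a thioesterase superfamily member, one of 1.74 ± 0.39. Their IP shares were 57.4%, 53.1% and 64.5%.

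The genes with the smallest p among negative interactions, also at an adjusted p of 0.342, had more IP signal under the null label. Aldh9a1 (chr1:167349991-167368532, plus strand), an aldehyde dehydrogenase of carnitine synthesis, had 14.7 and 16.0 CPM in the WT-labelled IPs and 33.6 and 54.9 CPM in the null-labelled IPs. In total RNA it had 15.3, 15.8 and 25.2 CPM against 11.5, 13.8 and 15.0 CPM, and the interaction was -2.06 ± 0.41. The order of the labels was thus opposite in IP and in total RNA. Palld, an actin-associated scaffold protein, had 10.1 and 13.6 CPM in the WT-labelled IPs against 43.2 and 36.9 CPM, with overlapping total RNA of 83.0 to 102 and 98.9 to 122 CPM and an interaction of -1.50 ± 0.31. Hars2, the mitochondrial histidyl-tRNA synthetase, had 21.9 and 27.6 CPM against 51.8 and 54.3 CPM and an interaction of -1.35 ± 0.28. BC023105, annotated as a processed pseudogene, had 7.98 and 4.28 CPM against 22.1 and 40.2 CPM and an interaction of -2.30 ± 0.44. Palld and BC023105 were also nearest to a call in the direct comparison of the IPs, where both had an adjusted p of 0.0662, and with edgeR's robust setting both passed there at 0.0357. Noc2l, a histone acetyltransferase inhibitor, had 7.56 and 10.1 CPM against 25.9 and 23.4 CPM and an interaction of -1.47 ± 0.31, of which 99.1% was on the IP side.

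2 of the others, Las1l and Rbm28, take part in ribosome assembly and had interactions of -1.49 ± 0.33 and -1.78 ± 0.40, and Parp8, a member of the poly(ADP-ribose) polymerase family, had -1.76 ± 0.39. Both IPs under the null label were above both under the WT label for each of the 3: for Rbm28, 37.8 and 21.4 CPM against 70.1 and 81.7 CPM. In total RNA the highest value of each was in WT-labelled total 3, such as 71.2 CPM for Rbm28 against 35.5 to 41.6 CPM in the other 5 samples. Eif2s3y, the Y-linked copy of an initiation factor 2 subunit, showed the same high sample at 119 CPM against 48.9 to 69.0 CPM, with 50.8 and 36.6 CPM against 97.9 and 93.9 CPM in the IPs and an interaction of -1.85 ± 0.37. BC048679 had the lowest value of these 12 genes, -3.21 ± 0.64, with 15.3, 5.63 and 16.7 CPM in WT-labelled total RNA against 4.202, 7.61 and 4.93 CPM. Leaving out WT-labelled total 2, its low value, made BC048679 the 1 gene called in the interaction (-3.56, adjusted p = 0.0294). Fgfr1op, a centrosomal protein gene, and Fmo1, a flavin monooxygenase gene, had interactions of -1.59 ± 0.33 and -1.39 ± 0.30 with IP shares of 61.8% and 62.1%.

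**Figure D3:**
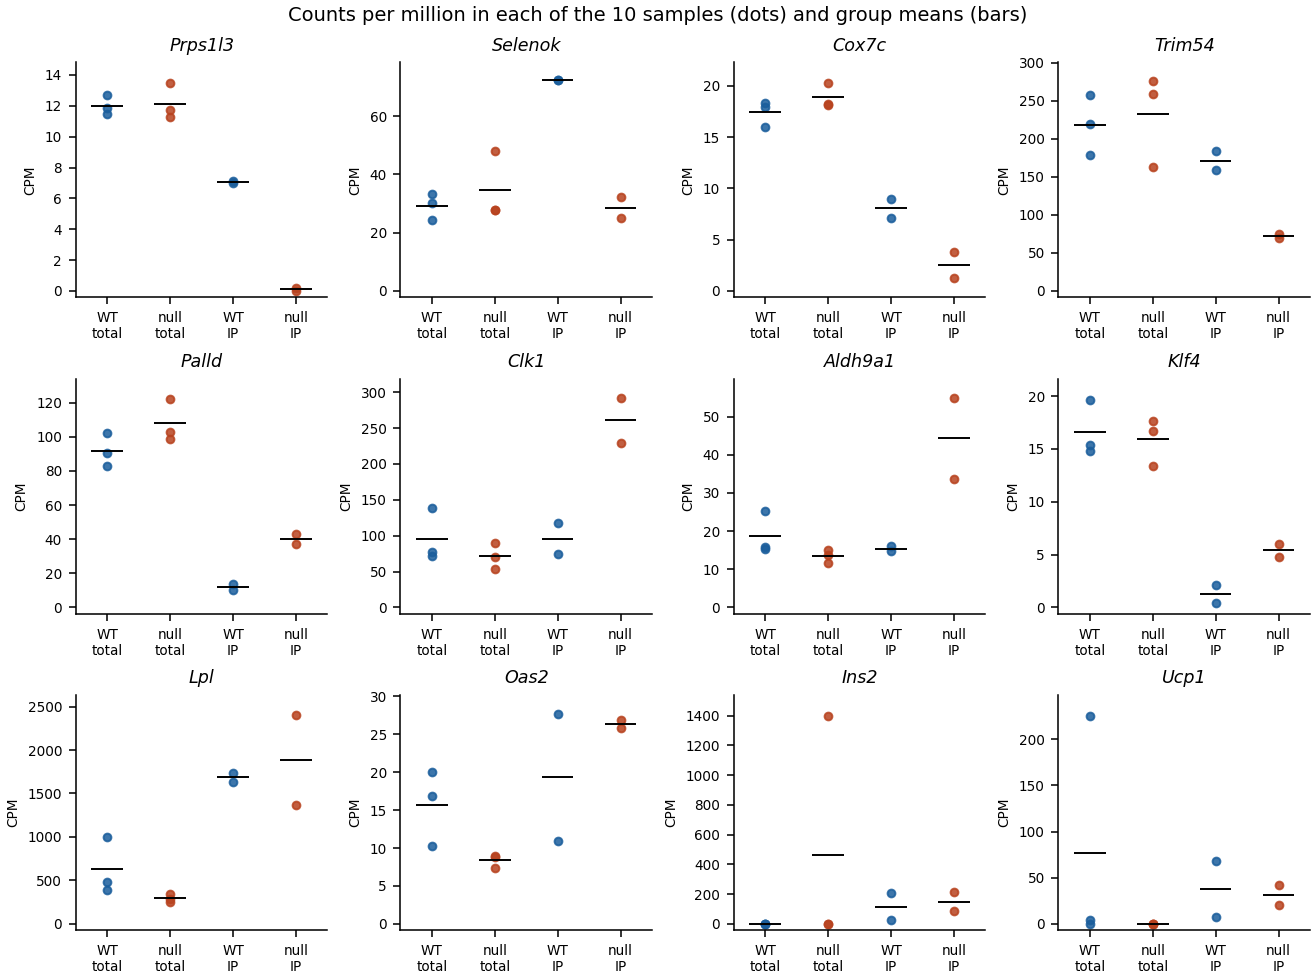
CPM of 12 genes in each sample (dots, blue for WT-labelled, red for null-labelled) with the group mean as a bar. The first 8 genes differ mainly in the IP columns on the right of each panel, Lpl and Oas2 differ in total RNA, and Ins2 and Ucp1 are high in 1 total RNA sample each, at 1396 and 225 CPM.

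Gene lists showed where groups of transcripts lay. Over all genes 48.7% of the interactions were positive, with a median of -0.02. By source, 61.1% of all genes were on the IP side, 20.9% on the total side and 18.0% mixed. No list member passed the correction, so the following counts describe directions and not calls. With library size alone as the scale the median of all genes became -0.40, and the list medians shifted with it; relative to all genes, each list described below as positive or negative kept its direction under that scale.

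Messenger RNAs for the protein synthesis machinery had positive interactions. Of 74 tested cytosolic ribosomal proteins, the structural proteins of the cytoplasmic ribosome, 60 were positive with a median of 0.74, and 26 had an unadjusted p under 0.05 in that direction, none in the other. Rps7 had 16.0 and 29.6 CPM in the WT-labelled IPs against 10.6 and 6.84 CPM and an interaction of 1.84 ± 0.51. Rpl7 and Rpl29 had 1.21 ± 0.37 and 1.22 ± 0.38. The median IP side of the list was 0.43 and the median total side -0.27, and 37 members were on the IP side, 31 mixed and 6 on the total side. Many ribosomal protein genes have near-identical pseudogenes, which makes their counts uncertain. Of 36 translation factors 29 were positive (median 0.51; 9 against 1 at the unadjusted limit), among them the elongation factors Eef1a2 (1.21 ± 0.39) and Eef2 (0.94 ± 0.37) and the initiation factor subunit Eif3f (0.95 ± 0.35). Without WT-labelled total 3 and null-labelled total 3 together, 49 of 72 ribosomal proteins were positive with a median of 0.24, and 26 of 36 translation factors with a median of 0.23.

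Nuclear-encoded mRNAs for respiratory complex subunits and mitochondrial ribosomal proteins went the same way. The lists for the TCA cycle (median -0.02) and for fatty acid uptake and oxidation (median -0.33), described below, did not. Most of the respiratory and mitochondrial ribosomal genes were on the IP side, but so were 61.1% of all genes tested. Of 37 subunits of respiratory complex I, the entry point of NADH electrons, 34 were positive (median 0.53), with 26 on the IP side and 1 on the total side. Ndufb6 had 44.5 and 55.3 CPM against 32.6 and 18.7 CPM in the IPs and an interaction of 1.36 ± 0.44. Ndufc2 had 0.99 ± 0.35 and Ndufa13 0.99 ± 0.38. Of 43 subunits of complexes II to V, 37 were positive (median 0.46), such as Cox5a (1.17 ± 0.39) and Cox6a2 (1.02 ± 0.35) of cytochrome c oxidase and Uqcrb (0.90 ± 0.34) of complex III. Of 75 mitochondrial ribosomal proteins 60 were positive (median 0.41), and 55 of the 75 were on the IP side. Within this list Mrps28 had 1.24 ± 0.39, while Mrpl47 and Mrpl41 had -1.19 ± 0.30 and -1.24 ± 0.36, with 24.4 and 29.2 CPM against 55.7 and 52.4 CPM in the IPs for Mrpl47. Without both total samples named 3 the medians were 0.21 for complex I, 0.02 for complexes II to V, with 22 of 42 positive, and 0.12 for the mitochondrial ribosome.

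Quality control and muscle maintenance genes followed. Of 31 proteasome subunits 28 were positive (median 0.51), including the catalytic subunit Psmb5 with 22.3 and 19.1 CPM against 11.5 and 8.50 CPM in the IPs (1.37 ± 0.41) and the alpha subunit Psma2 (1.07 ± 0.33). All 7 small heat shock proteins tested were positive (median 0.79), though 5 of 7 with library size alone. They include Hspb1 (1.09 ± 0.36), Hspb7 (0.99 ± 0.43), Cryab (0.79 ± 0.34) and Hspb2 (0.86 ± 0.31), of which the last 2 overlap on opposite strands, and the strand setting of the counting is not given. Of 20 selenoprotein genes 16 were positive (median 0.40), with Selenow at 4936 and 4951 CPM in the WT-labelled IPs against 3278 and 2925 CPM (1.10 ± 0.37), Msrb1, a methionine sulfoxide reductase, at 0.84 ± 0.30, and Sephs2, which makes the selenium donor, at 2.22 ± 0.75 from 6, 10, 1 and 3 IP counts. Of 13 MuRF ligase and atrophy genes 9 were positive (median 0.36, but 0.06 without null-labelled IP 2). In that list Trim54 (chr5:31116712-31137630, plus strand), a RING finger protein of striated muscle, had 184 and 158 CPM in the WT-labelled IPs against 69.1 and 74.8 CPM, with overlapping total RNA of 179 to 257 and 163 to 276 CPM. Its interaction was 1.33 ± 0.35 (adjusted p = 0.342), with 93.3% on the IP side. Ankrd1, a stretch-responsive ankyrin repeat protein of muscle, had 45.4 and 80.6 CPM against 26.9 and 17.8 CPM and 1.92 ± 0.51. It belongs to a list of 9 stretch genes of which 7 were positive with a median of 0.13, but 4 of 9 without null-labelled IP 2 (-0.25) and 4 of 9 without WT-labelled IP 1 (-0.03).

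Calcium handling, fast fibre and sarcomere genes were mostly positive, with shares from the IP and from total RNA that differed between the lists. The slow fibre list, described below, was not mostly positive. Of 21 calcium handling genes 19 were positive (median 0.57, 8 at the unadjusted limit), with 8 on the IP side, 6 on the total side and 7 mixed. Jsrp1, a junctional sarcoplasmic reticulum protein, had 1376 and 1495 CPM in the WT-labelled IPs against 859 and 871 CPM (1.08 ± 0.32), and Cacng1, a subunit of the muscle calcium channel, had 1.10 ± 0.40. Of 15 fast fibre genes 13 were positive with a median of 0.91, but only 1 was on the IP side, against 8 on the total side and 6 mixed. Their median total side was -0.51 and their median IP side 0.23. Pvalb, the calcium buffer parvalbumin, had 15470, 15680 and 11760 CPM in WT-labelled total RNA against 18700, 22460 and 34920 CPM, with 17590 and 25370 against 19680 and 17990 CPM in the IPs, so that 18.6% of its interaction of 1.02 ± 0.46 was on the IP side. The labels are separate in total RNA and overlap in the IP. Mylpf (1.52 ± 0.56), Actn3 (1.26 ± 0.48) and Tnni2 (1.10 ± 0.48) were mixed, at 41.9%, 51.4% and 53.8%. Among sarcomere genes, 20 of 28 were positive (median 0.25, -0.01 without null-labelled IP 2), and Des, the muscle intermediate filament desmin, had 8200 and 7231 CPM against 3937 and 4290 CPM in the IPs (1.31 ± 0.43), with Xirp1, an actin-binding repeat protein, at 1.047 ± 0.29. Of 20 genes of glycolysis and glycogen 17 were positive (median 0.35, 10 of 20 with library size alone), such as Pgk1 (1.20 ± 0.37). Summed myofibre markers were on opposite sides in IP and total RNA. They were 102600 and 117800 CPM in the WT-labelled IPs against 97980 and 73150 CPM, and 119300 to 213700 CPM in WT-labelled total RNA against 225700 to 279600 CPM, with no overlap in either. Their part in these results was not tested, and in bulk samples fewer cells of a type cannot be told apart from less RNA per cell.

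Most nuclear transcripts and CLK-related genes, and all SR splicing factors tested, had negative interactions. Other parts of the splicing machinery were not a list here, and Sf3b5, described above, had a positive interaction. Of 23 nuclear transcripts and CLK-related genes, a list of nuclear-retained RNAs and of genes whose mRNAs are often held in the nucleus with introns, 20 were negative with a median of -1.21, and 14 had an unadjusted p under 0.05, all negative. Clk1 (chr1:58410189-58424066, minus strand), a kinase of SR proteins, had 118 and 73.9 CPM in the WT-labelled IPs against 229 and 292 CPM. In total RNA it had 77.2, 72.0 and 139 CPM against 70.4, 90.5 and 53.7 CPM, which overlap, and the interaction was -1.88 ± 0.44 (adjusted p = 0.342, 0.0354 in DESeq2). Its relatives Clk3 and Clk4 had -1.17 ± 0.34 and -1.28 ± 0.38. Rsrp1, an arginine and serine rich protein, had 379 and 291 CPM against 1041 and 822 CPM in the IPs, and 609, 545 and 2031 CPM against 649, 697 and 394 CPM in total RNA. The high value is WT-labelled total 3, and the interaction of -2.35 ± 0.65 was 62.8% from the IP.

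All 15 SR splicing factors tested were negative (median -0.77, 6 at the unadjusted limit), among them Srsf11 (-1.30 ± 0.38), Tra2a (-1.52 ± 0.49), Srsf6 (-1.13 ± 0.38) and Srsf7 (-1.46 ± 0.49). For Srsf11 the IPs had 103 and 93.4 CPM against 147 and 227 CPM, and total RNA 88.0, 88.9 and 154 CPM against 86.6, 98.8 and 72.9 CPM. WT-labelled total 3 was again the highest and null-labelled total 3 the lowest. Without those 2 samples 19 of 23 nuclear and CLK genes were negative with a median of -0.77, and 14 of 15 SR factors with a median of -0.33. Of 15 snoRNA host genes 11 were negative (median -0.37), such as Snhg14 (-1.37 ± 0.39), but without WT-labelled total 3 the split was 7 to 7 with a median of -0.03. Of 20 IMP family and m6A genes 11 were negative (median -0.04, a sign that changed between scalings), and the m6A reader Ythdc1 and the demethylase Alkbh5 stood at -0.95 ± 0.32 and 0.99 ± 0.34.

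**Figure D4:**
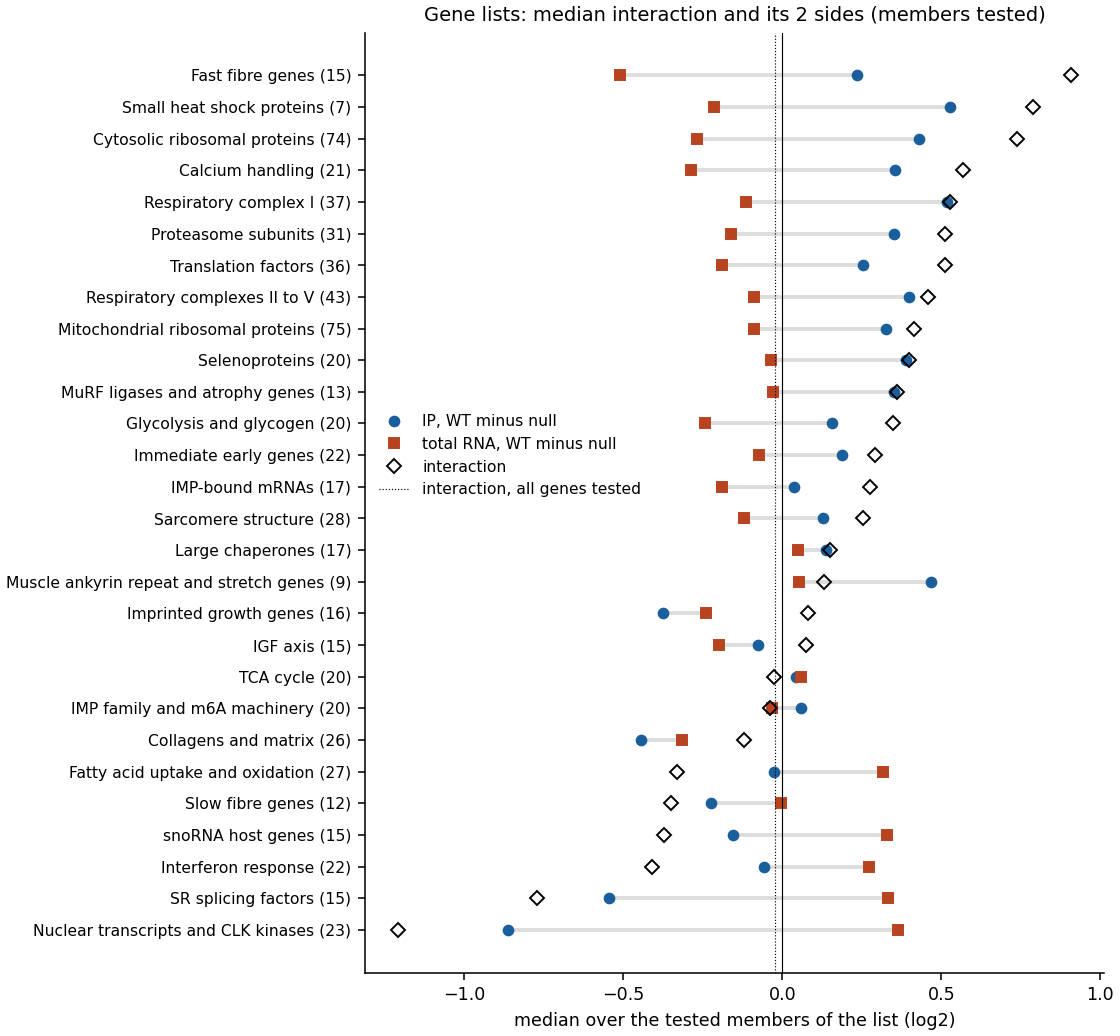
For each gene list, the median over its tested members (number in brackets) of the log2 WT minus null difference in the IP (blue circles), in total RNA (red squares) and of the interaction (open diamonds). Nuclear and SR lists lie at -1.21 and -0.77 with both sides contributing, complex I at 0.53 lies on its IP side, and fast fibre genes at 0.91 lie mostly on their total side.

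Fatty acid and interferon genes had negative medians that lay in total RNA. Of 27 genes of fatty acid uptake and oxidation 22 were negative (median -0.33), with a median IP side of -0.03 and a median total side of 0.32. In total RNA all 27 had a WT-labelled estimate above the null-labelled one, and 15 of the 27 were on the total side. Lpl, lipoprotein lipase, had 486, 1001 and 389 CPM in WT-labelled total RNA against 256, 339 and 287 CPM, with overlapping IPs of 1738 and 1631 against 1370 and 2400 CPM. Its interaction was -1.25 ± 0.50, with 13.1% on the IP side. The fatty acid carriers Cd36 (-0.69 ± 0.28) and Slc27a1 (-0.68 ± 0.29) and the oxidation enzyme Hadha (-0.65 ± 0.28) had IP shares of 53.1%, 30.6% and 58.6%. Summed adipocyte markers were 838 to 1477 CPM in WT-labelled and 730 to 902 CPM in null-labelled total RNA, and their part was not tested.

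Of 22 interferon response genes 18 were negative (median -0.41), with 10 on the total side. Oas2, an antiviral oligoadenylate synthetase, had 16.8, 10.3 and 20.1 CPM against 8.88, 8.79 and 7.39 CPM in total RNA, with 27.7 and 10.9 against 26.9 and 25.9 CPM in the IPs (-1.36 ± 0.51). The transcription factor Stat2 had -1.15 ± 0.40. Slc15a2, a peptide transporter, had the smallest p on the total side, with 12.4, 13.0 and 26.6 CPM against 7.92, 5.43 and 3.75 CPM in total RNA, 10.1 and 15.6 against 20.2 and 17.4 CPM in the IPs, and an interaction of -2.12 ± 0.57. Myl4, a myosin light chain of embryonic muscle and the atrium, had 4.58, 10.9 and 5.02 CPM against 17.7, 14.7 and 19.7 CPM in total RNA, 16.4 and 31.1 against 25.9 and 9.53 CPM in the IPs, and an interaction of 1.98 ± 0.64. For both genes the labels are separate in total RNA.

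Islet and brown fat genes had total sides set by 1 sample each, and whether their RNA came from tissue in the sample or was carried over was not tested. Ins2, an insulin gene, had 1396 CPM in null-labelled total 1 and 0.20 to 0.77 CPM in the other 5 total samples, and 24.0, 204, 211 and 87.0 CPM in the 4 IPs. Ins1 had 577 CPM in that sample and 0 to 0.23 in the others. Their interactions of 9.31 ± 3.12 and 9.66 ± 3.28 became -0.89 and -1.79 without null-labelled total 1. Ucp1, the uncoupling protein of brown fat, had 225 CPM in WT-labelled total 2, 0.10 to 3.69 CPM in the other 5, and an interaction of -8.45 ± 3.00. All 9 islet markers and all 5 brown adipocyte markers were on the total side, with medians of 9.31 and -5.23, and without null-labelled total 1 the islet median was -0.21. Without WT-labelled total 2 the interaction of Ucp1 was -3.17 and the median of the 4 brown adipocyte markers then tested was -1.15. Islet markers summed to 45.4 and 350 CPM in the WT-labelled and 380 and 146 CPM in the null-labelled IPs, which overlap.

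Other lists had medians nearer 0 or changed sign with a sample. Of 12 slow fibre genes 9 were negative (median -0.35), but without WT-labelled total 3 10 were positive (0.54) and without null-labelled IP 1 8 were (0.87). Of 20 genes of the TCA cycle 11 were negative (median -0.02), of 17 large chaperones 13 were positive (median 0.15) and of 26 collagen and matrix genes 16 were negative (median -0.12, 0.02 without null-labelled IP 2). Immediate early genes were positive in 14 of 22 (median 0.29).

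Markers of some other cell types were higher in both null-labelled IPs, while others were lower or overlapped. Endothelial markers summed to 1286 and 1292 CPM in the WT-labelled IPs against 1417 and 2145 CPM. Schwann cell markers summed to 268 and 410 CPM against 462 and 468 CPM, but 4 of 9 had a positive interaction (median -0.05). Lymphocyte markers were lower in both null-labelled IPs, at 21.01 and 10.89 against 6.716 and 6.218 CPM, with 5 of 9 at 0 in each. Satellite cell markers were also lower in both, at 129 and 136.2 against 99.79 and 119.6 CPM. Macrophage, mast cell, and smooth muscle and pericyte markers overlapped in the IPs. Fibroblast markers summed to 5670 and 4268 CPM in the WT-labelled IPs and to 10240 and 9003 CPM in the null-labelled IPs, with none of the 8 at 0, while total RNA overlapped at 2290 to 3663 and 2759 to 4814 CPM. All 8 had a negative interaction (median -0.63) and 6 were on the IP side. Col1a2, a chain of type I collagen, had 2512 and 1987 CPM against 5131 and 4257 CPM in the IPs and an interaction of -0.68 ± 0.39 (adjusted p = 0.50). Of 9 tendon markers 8 were negative (median -1.03, but -0.33 without null-labelled IP 1, which held 1159 CPM against 334 to 493 in the other IPs). Erythroid markers were 156 and 312 CPM against 483 and 778 CPM in the IPs. Spp1, the matrix protein osteopontin, went the other way with 52.1 and 6.62 CPM against 2.88 and 0.21 CPM (4.81 ± 1.35), and 124 of its IP counts were from WT-labelled IP 1. Klf4, a zinc finger transcription factor and the 1 immediate early gene of 22 at the unadjusted limit, had 5, 1, 5 and 29 IP counts and -2.27 ± 0.63.

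The list of mRNAs known from other work as bound by IMP proteins was split between the sides. Of 17 tested, 13 were positive (median 0.28, -0.11 with library size alone), with 7 on the IP side and 7 on the total side. Igf2 had 278 and 384 CPM in the WT-labelled IPs and 264 and 415 CPM in the null-labelled IPs, which overlap. In total RNA it had 23.0, 88.4 and 28.9 CPM against 74.7, 148 and 88.6 CPM, so the interaction of 1.11 ± 0.66 (adjusted p = 0.52) was on the total side, with an IP side of -0.04 ± 0.51. Igf2 was higher in the IP than in total RNA under both labels, by 2.82 (adjusted p = 0.000401) and 1.72 (adjusted p = 0.00972). Without WT-labelled total 2 and null-labelled total 1 together, Igf2 and Cdkn1c, an imprinted inhibitor of cell growth, were called as lower in WT-labelled total RNA, by -2.19 and -2.22 (adjusted p = 0.0347 for both). The noncoding RNA H19 had 5871 and 7817 CPM against 2958 and 6594 CPM in the IPs and an interaction of 1.08 ± 0.59. Ccnd1, cyclin D1, had 1.48 ± 0.54, on the IP side. Igf1, in an IGF axis list of which 10 of 15 were positive (median 0.08), had 150 and 94.6 CPM against 122 and 135 CPM and 0.08 ± 0.43. Ppara, a nuclear receptor for fatty acids, had 1, 1, 0 and 1 IP counts, too few for a difference between the labels in the IP to be detectable. It was lower in the IP than in total RNA under both labels, by -4.11 (adjusted p = 0.000242, edgeR) and -4.39 (adjusted p = 0.000781). In total RNA it had 8.01, 5.63 and 8.08 CPM against 4.80, 3.26 and 3.52 CPM, a difference of 0.91 ± 0.30 that did not pass (adjusted p = 0.996). Of 16 imprinted growth genes 10 were positive (median 0.08), and Nnat, neuronatin, had 44.95 and 101 CPM against 16.3 and 22.6 CPM in the IPs (1.88 ± 0.52), with 98.5% on the IP side.

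Cish, an inhibitor of cytokine signalling chosen after its values were seen, was the gene nearest to a call in total RNA. Its total RNA counts were 103, 107 and 161 under the WT label and 248, 282 and 381 under the null label, a difference of -1.93 ± 0.26 (adjusted p = 0.0509, edgeR; 1.43e-07 in DESeq2 and 0.0162 in limma-voom). In the IPs it had 6.30 and 13.2 CPM against 26.9 and 24.5 CPM, a difference of -1.37 ± 0.38 (adjusted p = 0.278). Both sides had the same sign, and the interaction was 0.56 ± 0.47 (adjusted p = 0.64). Cish thus shows the case that the interaction sets aside, a gene whose IP difference goes with one in total RNA.

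Coding length was a property on which the genes differed. Among the 722 protein-coding genes with a positive interaction at an unadjusted p under 0.05 the median coding sequence was 1044 bases, among the 875 with a negative one 1797 bases, and among all genes tested 1401 bases. In 5 groups of the 13116 protein-coding genes, ordered from shortest to longest, the median interaction was 0.20, 0.02, -0.02, -0.14 and -0.16. The IP side ran from 0.18 to -0.16 and the total side from -0.04 to 0.03. In the shortest group 9.41% of genes had a positive and 2.96% a negative interaction at that limit, and in the longest group 2.63% and 8.46%. Across genes Spearman's rho of coding length was -0.175 with the interaction, -0.181 with the IP side and 0.071 with the total side, as a description over genes that share their libraries. The length of the 3′ untranslated region gave -0.003.

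IP over total RNA favoured short coding sequences under both labels. Measured as each sample's log2 CPM minus the mean of the total samples of its label, rho was -0.284 and -0.310 in the WT-labelled IPs and -0.208 and -0.182 in the null-labelled IPs. Total samples, each set against the other 2 of its label, ranged from -0.418 in null-labelled total 3 to 0.281 in null-labelled total 1, which is a wider range than that of the IPs. The relation moved with single samples: for the interaction rho was -0.058 without null-labelled total 3 and WT-labelled total 3 together and -0.234 without null-labelled total 1 and WT-labelled total 2 together. The IP side uses no total sample, and its rho was -0.112 without null-labelled IP 2 and -0.138 without WT-labelled IP 2. Single genes went both ways. Among named genes with a positive interaction, coding sequences were 189 bases in Cox7c, 282 in Selenok and 384 in Ndufb6, but 1884 in Kcnc4 and 2700 in Actn3. Among those with a negative one they were 4224 in Palld and 2328 in Las1l, but 405 in Mrpl41 and 516 in BC048679. The part of length in the values of the genes and lists above was not tested.

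**Figure D5:**
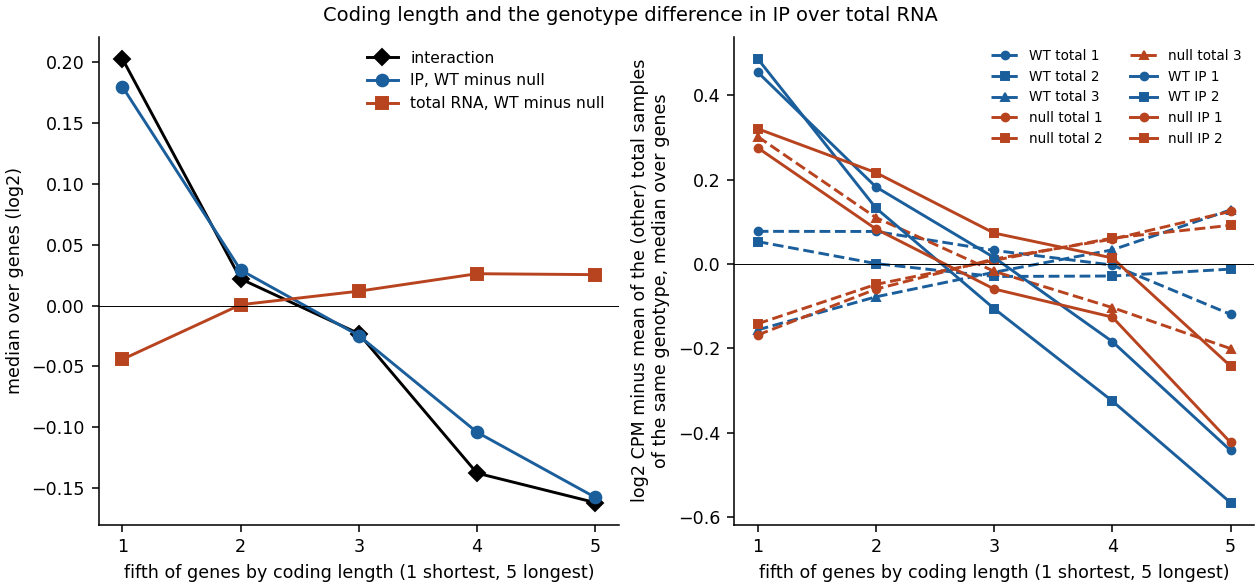
Left, the median interaction (black), IP side (blue) and total side (red) in 5 groups of 13116 protein-coding genes by coding length. Right, each sample's median log2 CPM minus the mean of the total samples of its label (for a total sample, the other 2): all 4 IPs fall from short to long genes, and among the totals null-labelled total 3 falls most.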

How the data were processed

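RNA-seq was made from total RNA and IP RNA with a QIAGEN kit and an Illumina TruSeq library kit, per the labels' protocols. The authors deposited raw read counts per Ensembl gene for each sample. STAR, HTSeq, mm10 and GRCm38 are named in the submitters' processing notes, and the versions and strand setting are not given in the sources used here. The 5 rows that name no gene were left out. Reads not aligned uniquely were 26.1% to 43.3% of each file's counts, ambiguous ones 3.30% to 6.04% and reads outside genes 8.55% to 11.2%. Names, positions and lengths came from GENCODE M21 (GRCm38), which held 42548 of the 43629 gene rows.

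All 10 samples were fitted together in R 4.3.3 with edgeR 4.0.16 (filterByExpr, TMM, quasi-likelihood test, 1 mean per group), and p-values were adjusted by Benjamini-Hochberg over the 14399 genes, with a threshold of 0.05. SEs were derived from the F statistic. DESeq2 1.42.0 and limma 3.58.1 (voom) were alternatives, with other scalings, other filters, a replicate block and each sample left out.

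Genes named were Igf2bp2, Igf2, H19, Igf1 and Ppara. To them were added 12 per direction of the interaction, first by size among calls and then by smallest p, and the 5 smallest p on the IP side and on the total side. These had at least 5 CPM on average, at least 10 counts in both IPs of 1 label and no clone-type name. Up to 4 genes per list with the smallest p completed the rule, of which 3 are not reported here; Col1a2, Prps1, Mipol1, Cish and Cdkn1c were named beside it where a result turned on them. The samples' comparison and the 28 gene lists and 17 marker lists (825 of 830 symbols found) were chosen with earlier results of these data known.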

Additional observations from a re-analysis of the deposited data

Results flagged for a closer look

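Prps1l3 was the 1 gene whose IP over total RNA differed between the labels by the test of the difference itself, with an interaction of 5.28 on the log2 scale (SE 0.71, adjusted p = 0.0415, edgeR). IP counts were 17 and 18 under the WT label and 0 and 1 under the null label. No group had the 4 samples needed to look for a sample far from the others.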

How the results depend on the processing

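Calls of the interaction numbered 17 with DESeq2, 263 with no low-count filter (23970 genes), and 0 with at least 10 counts in each IP sample, library size alone, limma-voom, or both total samples named 3 out. Calls between the IPs numbered 43 with DESeq2, 3 with edgeR's robust setting, 196 with no filter and 0 with the stricter filter, library size alone, limma-voom or both 3s out. Calls in total RNA numbered 1 (Cish) with DESeq2, RLE size factors, robust edgeR or limma-voom, and 164 with no filter. With WT-labelled total 2 and null-labelled total 1 out together, the counts were 0, 0 and 2. For these counts, both removals of 2 total samples together were chosen after seeing the data. The genes on the IP side numbered 765 with the stricter filter and 690 with that pair out. The genes on the total side numbered 20 with class limits of 80% and 20%, 24 with the stricter filter, 27 with robust edgeR, 89 with library size alone, 23 with limma-voom, 147 with no filter and 102 with that pair out. Leaving out 1 sample gave 0 to 1 calls in the interaction, 0 to 3 between the IPs, 0 to 1 in total RNA, 3763 to 5477 in IP over total RNA under the WT label and 2146 to 5706 under the null label, with 954 to 2138 genes on the IP side and 9 to 96 on the total side. The causes were not tested.

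Of 91 named genes, 86 never changed sign in 22 alternative fits. Most of them were chosen by the smallest p of the interaction in the main fit, and the alternatives reuse the same samples. A stable sign was thus favoured by the choice, and the count is no separate support. Of Igf2bp2, Igf2, H19, Igf1 and Ppara, named whatever their p, only Igf2 and H19 kept their sign. Igf1 was -0.28 with library size alone and -0.47 without both 3s (-0.30 to 0.41 with 1 sample out). Ppara was -0.11 with library size alone, -0.20 with limma-voom and -0.057 with the outlying pair out (-0.00053 to 3.87 with 1 sample out). Ins2 was -0.62 and Ins1 -1.53 with that pair out (-0.89 to 10.2 and -1.79 to 10.6). Igf2bp2 ranged from -2.37 to 0.59.

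The labels number the samples in each group. With a replicate block across groups the interaction had 0 calls, the IPs 0 and total RNA 1. With a block within genotype it had 147, Igf1 was -0.50, and 30 named genes passed that otherwise did not, such as Ankrd1 (adjusted p = 1.11e-09), BC023105 (1.7e-05), Hbegf (0.000204) and Igf2 (0.00617). Same-numbered IP and total samples deviated together with r of 0.107, 0.0947, 0.126 and 0.149; as 1 of these was below 0.1, the numbers were not taken to pair the samples. Over the 7948 genes with at least 10 counts in each IP sample the values were 0.168, 0.153, 0.149 and 0.218, all above 0.1. Each IP sample correlated best with its own number, a hint from the data and not from the design. With 2 IP samples a group, their deviations mirror each other, so the 2 matches within a label are not independent. The shallowest sample, null-labelled IP 1, had 917462 gene counts.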
